A study of Mus musculus with 16 samples.

Results

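A list of 31 genes of the lysosome was followed through tumours of B16R2L, a mouse melanoma cell line. It holds hydrolases, membrane proteins, lipid handling proteins and subunits of the vacuolar proton pump, the kinds of gene that melanosomes and macrophages also use, and it leaves out the cathepsins. Genes were taken by their symbol, and all 31 of 31 were found among the 16094 genes of the table. The melanoma cells carried a short hairpin RNA, either against Mdk (shMdk), which encodes midkine, a secreted growth factor, or of a non-targeting sequence (shCtrl). Mice bearing either tumour received anti-PD1, an antibody (clone RMP1-14) that blocks an inhibitory receptor of T cells, or its IgG2a control. The groups were shMdk anti-PD1, shMdk IgG2a, shCtrl anti-PD1 and shCtrl IgG2a, with 4 tumours each. Treatment began at a tumour volume of 100 mm3 and was given 2 times a week for 2 weeks, with anti-PD1 at 10 mg/kg, per the labels. Each line carried 1 hairpin, so an effect of losing Mdk and another difference between the lines cannot be told apart. Age, sex and strain of the mice are not given in the sources used here.

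Lysosomes are acid compartments in which enzymes break down sugars, lipids, proteins and nucleic acids that arrive by endocytosis and autophagy. A proton pump of the V-ATPase type acidifies them, heavily glycosylated membrane proteins line and protect them, and transporters return the products to the cytosol. Melanocytes build pigment granules, the melanosomes, with much of the same machinery, and macrophages carry large numbers of lysosomes to digest what they engulf. Many lysosomal genes share an E-box in their promoters that is bound by transcription factors of the MiT/TFE family, among them TFEB, TFE3 and the melanocyte factor MITF.

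That E-box, with the letters CACGTG (a palindrome, so both strands were searched at once), was counted in the RefSeq promoters of mouse build GRCm38.p6, from 250 bases before to 50 bases after the start of the gene. A promoter was matched for 26 of the 31 genes, and 9 of these 26 (34.6%) held the motif, against 8.09% of all 27025 genes with a promoter. They were Lamp1, Gaa, Gla, Glb1, Mcoln1, Sgsh, Naglu, Atp6v0d1 and Atp6v1a. The longer form TCACGTGA, which contains the first, was found in 4 of the 26 (15.4%), Gla, Mcoln1, Atp6v0d1 and Atp6v1a, against 1.12% of all genes. A promoter for Npc1, Galns, Asah1, Atp6v1b2 or Atp6v1h was not used here. A match describes the letters and shows no binding. The 4 stretches of 100 bases shown here cover the promoter with the most copies (Lamp1, 4 copies), one with a pair of copies of the longer form (Gla, 2 copies), one with a single copy (Glb1) and, for contrast, the gene with the clearest change of RNA level (Psap, 0 copies in its window). Capitals mark the CACGTG letters.
Lamp1: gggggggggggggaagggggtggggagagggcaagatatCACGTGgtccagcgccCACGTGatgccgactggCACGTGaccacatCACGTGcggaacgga
Gla: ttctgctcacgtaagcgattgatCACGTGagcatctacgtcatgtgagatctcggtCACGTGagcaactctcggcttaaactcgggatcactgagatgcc
Glb1: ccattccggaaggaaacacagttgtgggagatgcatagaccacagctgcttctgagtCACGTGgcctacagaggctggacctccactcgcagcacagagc
Psap: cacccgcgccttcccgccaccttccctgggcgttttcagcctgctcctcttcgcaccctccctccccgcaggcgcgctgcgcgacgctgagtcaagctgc
The Lamp1 stretch lies at chr8:13159061-13159160 on the plus strand and the Gla stretch at chrX:134601156-134601255 on the minus strand. The Glb1 stretch lies at chr9:114400973-114401072 and the Psap stretch at chr10:60277523-60277622, both on the plus strand. All 4 lie upstream of their genes in the GENCODE M21 annotation.

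Libraries held 5686405 to 8886334 reads, counted at the 3′ ends of transcripts and divided by a size factor per tumour, and levels are given as these normalised reads. Mdk was lower in every shMdk tumour, at 96.5 to 323 normalised reads, against 601 to 1161 in shCtrl tumours (two-sided exact permutation test within each antibody, p = 0.0286, the smallest that 4 against 4 tumours allow). Libraries were set apart in 2 ways. In shCtrl anti-PD1 tumour 2 and shMdk IgG2a tumour 1, the transcript Gm42418 took 4.47% and 3.17% of the reads, over 2 times the median. In 5 libraries, levels relative to each gene's mean over the 16 tumours went up with the GC content of its 3′ end. They were shMdk anti-PD1 tumour 1, shMdk IgG2a tumours 3 and 4 and shCtrl IgG2a tumours 1 and 2. Such a slope is relative to the average of the series, so some libraries must be positive and others negative. Tests were limma fits over 14672 genes with a mean of at least 5 normalised reads, and all 31 genes of the list passed that filter. A call is a Benjamini-Hochberg adjusted p under 0.05 over all genes tested, errors after fold changes are standard errors, and every adjusted p comes from limma unless another tool is named.

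The summed level of the list was 69000 to 93230 normalised reads in shMdk anti-PD1 tumours, 69988 to 80136 in shMdk IgG2a, 61280 to 78540 in shCtrl anti-PD1 and 73988 to 81996 in shCtrl IgG2a tumours, which is 0.718% to 1.26% of all reads. Gpnmb, a melanosome and lysosome glycoprotein, Cd63 and Psap stood highest in the list, each at 7401 normalised reads or more in every tumour. Galns, Mcoln1 and Gla sat lowest, at 17.8 to 86.3 normalised reads. Since the assay takes reads from the 3′ end, gene length does not scale these values.

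The question of the first comparison is what the Mdk hairpin does under anti-PD1. Psap, the precursor that is cut into the saposins that present lipids to lysosomal hydrolases, was the 1 gene of the 31 that passed, and it rose. Over all genes tested, 5.93% passed in this comparison and 4.93% passed as higher in shMdk tumours, so the list's share of 3.23% was near the background. Psap read 17768, 19802, 10966 and 15070 normalised reads in the 4 shMdk anti-PD1 tumours, against 8715, 7626, 8093 and 7911 in the shCtrl anti-PD1 tumours. Every shMdk tumour lay above every shCtrl tumour, and shMdk tumour 3 was the nearest to them. The log2 fold change was 0.94 ± 0.18 (adjusted p = 0.00448, 95% interval 0.56 to 1.33). An exact two-sided permutation test of this gene gave p = 0.0286 (n = 4 each), the smallest that 4 against 4 tumours allow. Any gene without overlap gives that p, so it adds no separate support. Such genes, higher in shMdk tumours, were 8.23% of all genes tested. When 1 tumour at a time was left out, the log2 fold change ran from 0.83 to 1.11 with adjusted p between 0.00165 and 0.0229.

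**Figure D1:**
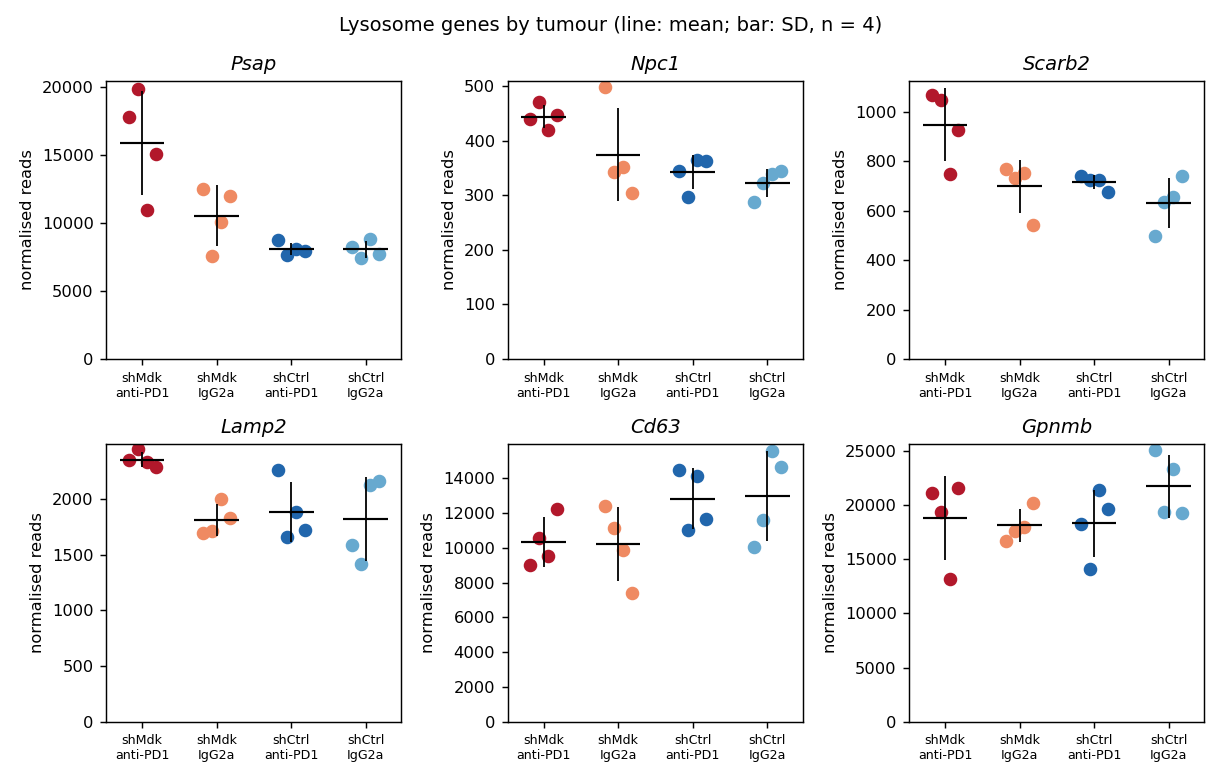
Normalised reads (y axis) of 6 lysosome genes in each tumour of the 4 groups; points are tumours, horizontal lines means and vertical bars SD (n = 4). Psap lies at 10966 to 19802 in shMdk anti-PD1 tumours and at 7626 to 8715 in shCtrl anti-PD1 tumours, while Gpnmb overlaps between all groups.

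Levels of cell type markers also differed in this comparison. Of 17 macrophage and monocyte markers, 16 rose in shMdk tumours under anti-PD1, with a median log2 fold change of 2.54, and their summed level was 4834 to 10761 normalised reads in shMdk anti-PD1 tumours, against 549 to 2211 in shCtrl anti-PD1 tumours. The shMdk anti-PD1 tumours 1 and 2 had the highest sums of these markers (10137 and 10761) and the highest Psap, and tumour 3 had the lowest of both. Their T and NK cell marker sums were likewise highest in tumours 1 and 2 (391 and 407) and lowest in tumour 3 (169). The melanocyte and melanosome sum was also highest in tumour 2 (163464) and lowest in tumour 3 (124511). Dendritic cell sums were highest in tumours 1 and 2 (273 and 387) and lowest in tumour 4 (149). Fibroblast sums were highest in tumours 1 and 4 (13380 and 6254) and lowest in tumour 3 (1529). Endothelium (733) and neutrophil (109) sums were lowest in tumour 2. In shCtrl anti-PD1 tumours the orders of Psap and of the macrophage sum differed. Tumour 1 had the highest Psap at a macrophage sum of 1089, tumour 4 the highest macrophage sum (2211), and tumour 2 the lowest of both. Markers of T and NK cells rose in 7 of 8, fibroblasts in 4 of 7, endothelium in 3 of 7, dendritic cells in 2 of 5 and neutrophils in 1 of 6. The 8 T and NK cell markers were low in shCtrl anti-PD1 tumours, where their sum averaged 28.9 normalised reads and reached 51.2. In shMdk anti-PD1 tumours that sum averaged 285. As a set they thus met the filter on mean level mainly through shMdk tumours, which can favour markers higher there. Of 14 melanocyte and melanosome markers 0 passed, 2 had an unadjusted p under 0.05, and their median log2 fold change was -0.29. Their summed level was 124511 to 163464 normalised reads in shMdk anti-PD1 tumours and 152368 to 208110 in shCtrl anti-PD1 tumours. No marker counted here was at 0 throughout a group. Listed markers absent from the 16094 genes, such as Cd4, Cd3g, Ly6g and Flt3, are not in these counts. These are bulk samples, in which more cells of a type and more RNA per cell cannot be told apart, and the part of these cells in the change of Psap was not tested.

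Under anti-PD1, 10 of the 31 genes had an unadjusted p under 0.05, against 17.8% of all genes tested. That count rested on single tumours. It was 3 without shCtrl anti-PD1 tumour 2, 4 and 5 without shMdk anti-PD1 tumours 2 and 1, and 4 without the Gm42418-rich libraries. Higher in shMdk tumours in 9 of these 10, they were Psap, Grn, both cholesterol exporters, the membrane proteins Lamp1, Lamp2, Scarb2 and Laptm4a, and the enzyme gene Gla. Ctns, the transporter that lets cystine out of the lysosome, was the other, at -0.54 ± 0.21 (adjusted p = 0.184). The groups did not overlap, with all shMdk tumours higher, for Lamp2, Npc1, Psap and Scarb2, 4 of 31 against 8.23% of all genes tested. The same held with all shMdk tumours lower for 0 of 31, against 5.2% of all genes.

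Cholesterol leaves the lysosome through Npc2, which binds it in the lumen, and Npc1, which takes it across the membrane. Npc1 read 439, 470, 419 and 447 normalised reads in shMdk anti-PD1 tumours, against 344, 297, 364 and 363 in shCtrl anti-PD1 tumours, with no overlap (log2 fold change 0.38 ± 0.15, adjusted p = 0.164). Npc2 averaged 5202 ± 1088 normalised reads in shMdk anti-PD1 and 3823 ± 556 in shCtrl anti-PD1 tumours (SD, n = 4 each), a log2 fold change of 0.43 ± 0.20 (adjusted p = 0.252). Both were higher without passing the test.

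Of the 6 membrane glycoproteins, 5 had a positive value and 0 passed (4 with an unadjusted p under 0.05). Lamp2, a main coat protein of the membrane and a receptor for chaperone-mediated autophagy, read 2348, 2446, 2332 and 2290 normalised reads in shMdk anti-PD1 tumours and 2262, 1657, 1885 and 1725 in shCtrl anti-PD1 tumours. Its 4 shMdk tumours lay close together just above the highest shCtrl tumour (log2 fold change 0.33 ± 0.14, adjusted p = 0.226). Scarb2, the receptor that carries beta-glucocerebrosidase to the lysosome, read 1070, 1046, 747 and 925 against 740, 722, 725 and 674 (shMdk anti-PD1 against shCtrl anti-PD1; log2 fold change 0.39 ± 0.15, adjusted p = 0.173). The groups did not overlap, though tumour 3 of the shMdk group lay just above the highest shCtrl tumour. Lamp1, the other main coat protein, gave 0.42 ± 0.18 (adjusted p = 0.232), and Laptm4a, a small membrane protein of late endosomes and lysosomes, 0.49 ± 0.18 (adjusted p = 0.132). Cd63, a tetraspanin of late endosomes, melanosomes and secreted vesicles, ran the other way, at 9013 to 12254 normalised reads in shMdk anti-PD1 tumours and 11017 to 14490 in shCtrl anti-PD1 tumours (-0.31 ± 0.18, adjusted p = 0.419). Gpnmb, which melanocytes and macrophages share, averaged 18803 ± 3868 and 18324 ± 3100 normalised reads in shMdk and shCtrl anti-PD1 tumours (SD, n = 4 each), and its log2 fold change was 0.03 ± 0.18 with a 95% interval of -0.35 to 0.41.

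Grn encodes progranulin, a secreted protein cut into granulins inside lysosomes. It read 3880, 3646, 2426 and 2203 normalised reads in shMdk anti-PD1 tumours, against 1948, 1019, 2190 and 2407 in shCtrl anti-PD1 tumours. The groups overlapped, since shCtrl tumour 4 lay above shMdk tumour 4. The log2 fold change was 0.71 ± 0.31 (adjusted p = 0.238), and it was 0.44 without the Gm42418-rich libraries, of which shCtrl tumour 2, the lowest, is one.

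The genes grouped here as carbohydrate hydrolases had positive values in 7 of 7, with 0 passing (1 with an unadjusted p under 0.05). Their median log2 fold change was 0.08, beside -0.02 for all genes. Gla, alpha-galactosidase A, read 46.6, 78.3, 68.6 and 86.3 normalised reads in shMdk anti-PD1 tumours and 45.1, 36.0, 46.5 and 53.0 in shCtrl anti-PD1 tumours, a log2 fold change of 0.60 ± 0.24 (adjusted p = 0.188). In 3 of its 4 shMdk tumours it was above all shCtrl tumours. The alpha chain of beta-hexosaminidase, Hexa, gave 0.25 ± 0.16, the alpha-mannosidase Man2b1 0.17 ± 0.16 and the beta-galactosidase Glb1 0.08 ± 0.18. The sialidase Neu1 (0.05), the glycogen-cutting Gaa (0.04) and the beta-glucuronidase Gusb (0.01) lay closest to 0.

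Sgsh and Naglu, which take heparan sulphate apart, and Galns, which acts on keratan sulphate, had log2 values between -0.22 and -0.12, and 0 of 3 passed, with 0 at an unadjusted p under 0.05. The enzymes for proteins and lipids ran from -0.07 for the tripeptidyl peptidase Tpp1 to 0.24 for Ppt1, which removes palmitate from proteins. Asah1, acid ceramidase, gave 0.17 ± 0.21 and Lipa, the acid lipase that frees cholesterol and fatty acids, 0.09 ± 0.19. In this group of 4 also 0 passed, with 0 at an unadjusted p under 0.05. The calcium channel gene Mcoln1 gave -0.04 ± 0.29.

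The proton pump genes had a median log2 fold change of 0.00 in this contrast. Of the 5, 0 passed with limma, 0 had an unadjusted p under 0.05, and log2 values lay between -0.14 and 0.30. Atp6v1a, the catalytic subunit, read 3002, 3191, 2966 and 3493 normalised reads in shMdk anti-PD1 tumours and 3273, 3418, 3046 and 2884 in shCtrl anti-PD1 tumours. The groups overlapped almost fully, with a log2 fold change of 0.00 ± 0.12 and a 95% interval of -0.25 to 0.26, the narrowest of the list. Atp6v0d1, which links the membrane and cytosolic parts of the pump, gave -0.14 ± 0.14, Atp6v1b2 0.04 ± 0.26, the regulatory subunit gene Atp6v1h -0.02 ± 0.32, and the accessory protein gene Atp6ap1 0.30 ± 0.21.

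**Figure D2:**
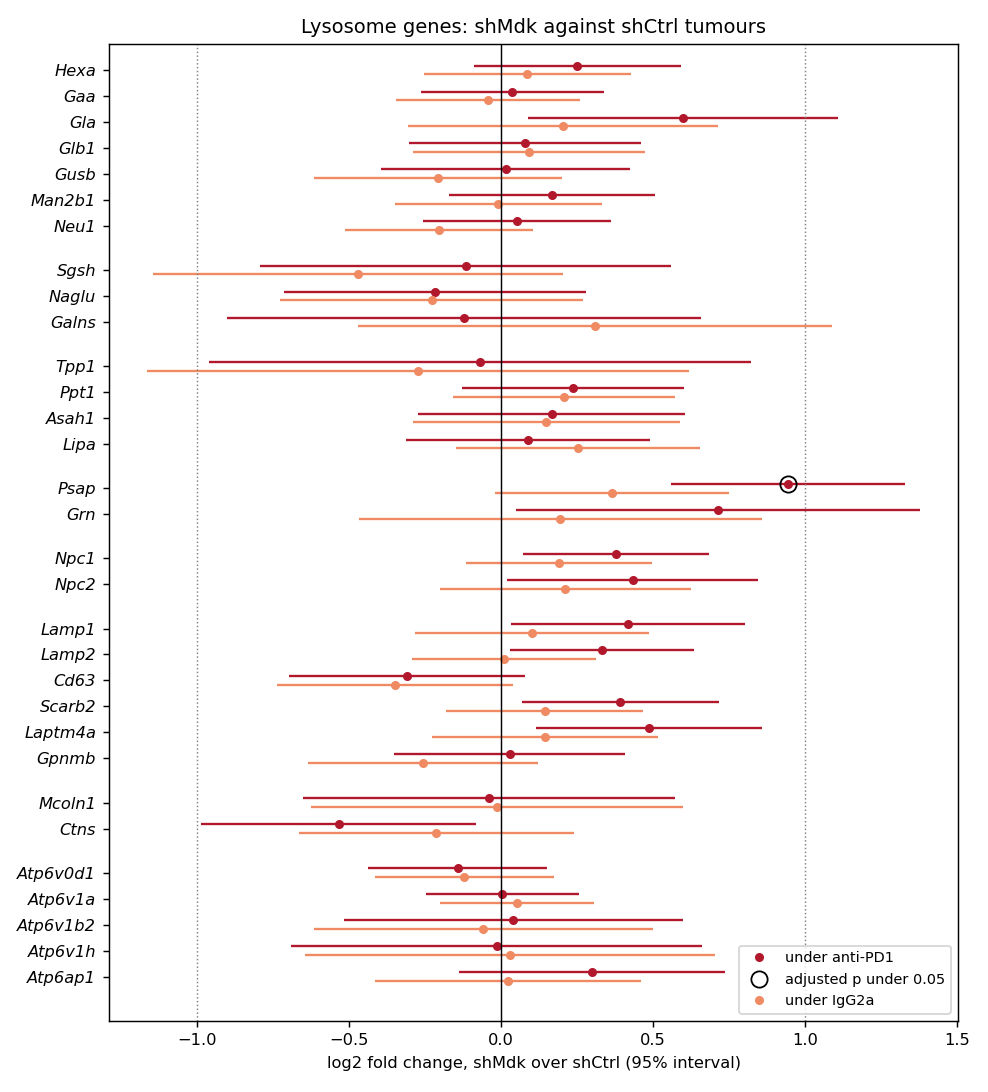
Log2 fold changes of shMdk over shCtrl tumours (x axis) for the 31 lysosome genes in order of role, with 95% intervals from limma, under anti-PD1 (dark red) and under IgG2a (orange); dotted lines mark 2-fold. Only Psap under anti-PD1 carries the black ring of an adjusted p under 0.05, and 28 of 31 intervals lie within 2-fold under each antibody.

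Under IgG2a the same contrast gave 0 called genes of 31 by limma, with 0 at an unadjusted p under 0.05, against 1.74% and 9.69% of all genes tested. With edgeR and DESeq2 the count was also 0, each with 1 gene at an unadjusted p under 0.05. With limma that number was 2 without shCtrl IgG2a tumour 1, 1 without shMdk IgG2a tumour 1 or 2, and 2 without either set of libraries set apart above. Psap read 12473, 7579, 10088 and 11981 normalised reads in shMdk IgG2a tumours, against 8263, 7426, 8814 and 7716 in shCtrl IgG2a tumours. All shMdk tumours but tumour 2 lay above the shCtrl tumours, and tumour 2 lay among them. The log2 fold change was 0.36 ± 0.18 (adjusted p = 0.561; exact two-sided permutation test p = 0.114, n = 4 each). The summed macrophage markers were 2205 to 5027 normalised reads in shMdk IgG2a tumours, lowest in tumour 2, against 662 to 1596 in shCtrl IgG2a tumours. Of these 17 markers, 8 passed. Melanocyte, dendritic cell and endothelium sums in shMdk IgG2a tumours were also lowest in tumour 2 (144168, 209 and 559). T and NK cell, neutrophil and fibroblast sums were lowest in tumours 4, 3 and 1 (116, 35.1 and 1206). In shCtrl IgG2a tumours, tumour 2 had the highest macrophage marker sum (1596) and the lowest Psap (7426). The part of these markers' cells in the Psap values was not tested. The median log2 fold change of the 31 genes was 0.03, beside -0.01 for all genes, and 18 of 31 were positive. Groups without overlap numbered 0 of 31 in either direction, against 4.16% higher and 1.93% lower over all genes. Cd63 had the value with the smallest unadjusted p after Psap, -0.35 ± 0.18 (adjusted p = 0.609), and it was 7401 to 12397 normalised reads in shMdk IgG2a and 10064 to 15587 in shCtrl IgG2a tumours.

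Averaged over both antibodies, Psap was again the 1 gene of 31 that passed (0.65 ± 0.13, adjusted p = 0.00301), beside 8.4% of all genes tested, 6.23% of them higher in shMdk tumours. The call was lost without the 5 libraries of positive GC slope, where the value was 0.56 ± 0.17 (adjusted p = 0.0771). That fit left out 2 tumours of each IgG2a group and 1 of the shMdk anti-PD1 group. In a call lost there, fewer tumours and the GC slope cannot be told apart. An unadjusted p under 0.05 was found for 8 genes of the list, against 21% of all genes, and for 5 without shMdk anti-PD1 tumour 2 or without the libraries of positive GC slope. The 8 were Psap, Npc1 (0.28), Npc2 (0.32), Scarb2 (0.27), Laptm4a (0.31) and Gla (0.40) as higher in shMdk tumours, with Cd63 (-0.33) and Ctns (-0.37) as lower. Under anti-PD1 alone the Psap call held without these libraries (0.88, adjusted p = 0.0299) and without the Gm42418-rich ones (0.92, adjusted p = 0.0132).

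The intervals show how large a change the data leave room for. The 95% intervals lay wholly within 2-fold for 28 of 31 genes under anti-PD1, beside 58.7% of all genes tested, and for 28 of 31 under IgG2a, beside 62.4%. For the average over both antibodies this held for 31 of 31, beside 74.5%. Under anti-PD1 the genes whose intervals reached past 2-fold were Psap, Grn (0.05 to 1.38) and Gla (0.09 to 1.11). Under IgG2a they were Tpp1, Sgsh and Galns. By mean level, 27 of the 31 genes lay above the median gene (medians of 791 normalised reads for the list and 125 for all genes tested), so these shares describe precision at that level.

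Anti-PD1 against IgG2a within each line called 0 of 31 genes by limma in shMdk tumours, where 0.0341% of all genes passed, and 0 of 31 in shCtrl tumours, where 0% did. With edgeR and DESeq2 the list's count was 0 in both lines. An unadjusted p under 0.05 from limma was found for 4 genes in shMdk tumours (12.4% of all genes) and for 1 in shCtrl tumours (3.79%). These counts were 7 without shMdk IgG2a tumour 1 for shMdk tumours, and for shCtrl tumours 0 without anti-PD1 tumour 2 or IgG2a tumour 1 or 2, 4 without IgG2a tumour 3 and 3 without IgG2a tumour 4. The 4 were Psap (0.59 ± 0.18, adjusted p = 0.24), Scarb2 (0.44 ± 0.15, adjusted p = 0.281), Lamp2 (0.38 ± 0.14, adjusted p = 0.317) and Laptm4a (0.38 ± 0.18, adjusted p = 0.394), all higher under anti-PD1. Lamp2 read 1691, 1714, 2000 and 1834 normalised reads in shMdk IgG2a tumours, all below the lowest shMdk anti-PD1 tumour at 2290. With Atp6v1h it made 2 of 31 genes without overlap as higher under anti-PD1 (4.42% of all genes), and 0 of 31 were lower without overlap (4.1%). In shCtrl tumours the gene was Sgsh, at 69.1 to 192 normalised reads under anti-PD1 and 161 to 334 under IgG2a (-0.73 ± 0.32, adjusted p = 0.798). Without the 5 libraries of positive GC slope it was -0.27. Psap in shCtrl tumours gave 0.01 ± 0.18.

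Averaged over both hairpins, anti-PD1 called 0 of 31 genes by limma, edgeR and DESeq2 (0.0477% of all genes by limma), and 8 had an unadjusted p under 0.05, beside 16.8% of all genes. Without the libraries of positive GC slope this count was 0, and it was 3 to 5 when 1 of these tumours was left out: shMdk anti-PD1 2 or 4, shMdk IgG2a 2 or 4, shCtrl anti-PD1 1 or 3 and shCtrl IgG2a 1 or 2. The 8 were Scarb2 (0.32), Psap (0.30), Lamp2 (0.22), Tpp1 (0.66) and Atp6v1h (0.62) as higher, with Naglu (-0.48), Sgsh (-0.55) and Mcoln1 (-0.45) as lower. Set against each other, the effects of anti-PD1 in shMdk and in shCtrl tumours differed for 0 of 31 by limma, edgeR and DESeq2, where 0% of all genes passed by limma. Psap was the 1 gene with an unadjusted p under 0.05 for that difference (3.45% of all genes), at 0.58 ± 0.26 (adjusted p = 1), and that count was 0 to 2 when a tumour was left out and 3 without the libraries of positive GC slope. A stronger effect of anti-PD1 on Psap in shMdk tumours is therefore not shown.

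The spread between tumours of 1 group was not alike across the list. Median coefficients of variation over the 4 groups ran from 8.13% for Atp6v1a and 8.57% for Npc1 to 34.8% for Grn and 35.3% for Galns. In shCtrl IgG2a tumours Tpp1 read 348, 640, 1582 and 1432 normalised reads, Atp6v1h 201, 273, 626 and 613, and Naglu 2839, 2120, 1345 and 1198. Tumours 1 and 2, the pair with a positive GC slope, were low for Tpp1 and Atp6v1h and high for Naglu. The slope is that of log2 level, less the gene's mean over the 16 tumours, against the GC content of the last 300 transcript bases. It was fitted over 9786 genes. It was 0.0887 to 0.182 per 10 percentage points of GC in the 5 libraries and -0.124 to -0.00252 in the other 11.

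**Figure D3:**
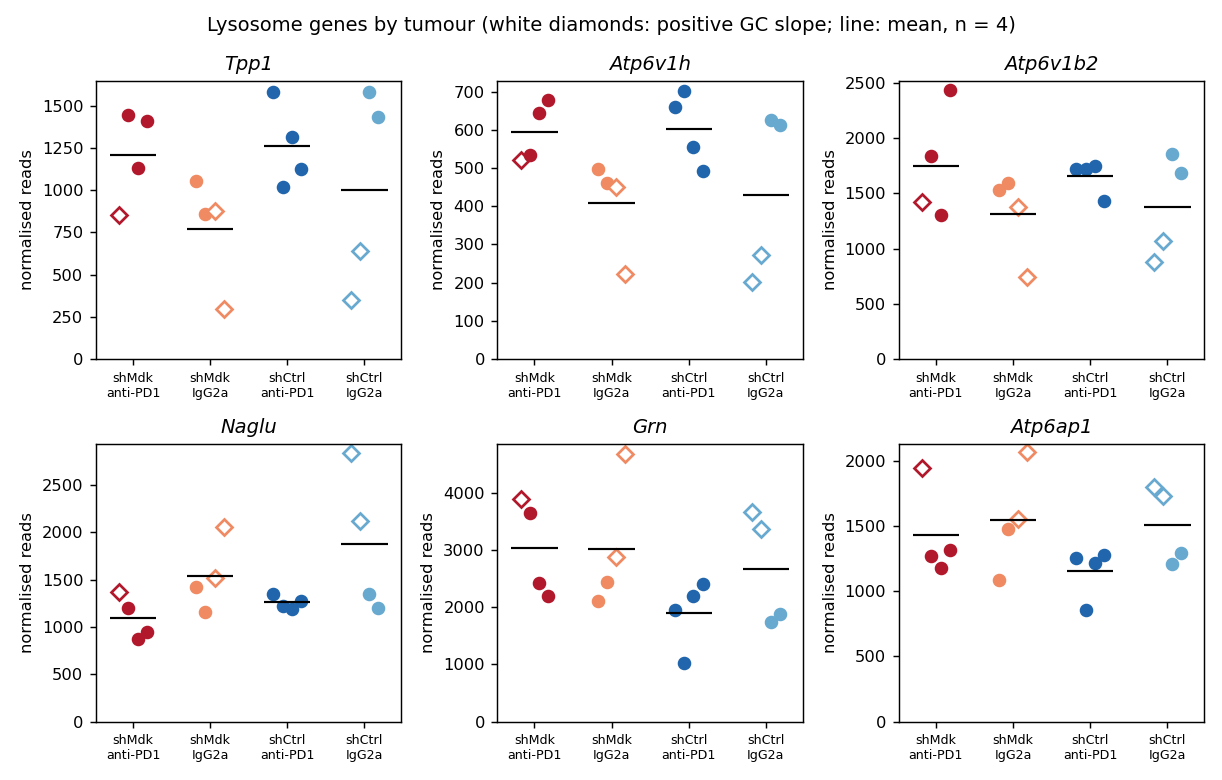
Normalised reads (y axis) of 6 lysosome genes in each tumour; white diamonds are the 5 libraries with a positive GC slope, filled circles the other tumours and lines the group means. In shCtrl IgG2a tumours the diamonds lie at 348 and 640 for Tpp1, below the circles at 1582 and 1432, and at 2839 and 2120 for Naglu, above the circles at 1345 and 1198.

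Within each of the 3 groups that hold such libraries, Lamp1, Gaa, Npc2, Naglu, Grn and Atp6ap1 read higher in all of them than in any other tumour of the group, which makes 6 of 31, against 8.02% of all genes tested. Cd63 and Atp6v1h read lower in all of them, 2 of 31 against 9.56% of all genes. By mean difference, 9 genes of the list were higher in the positive-slope libraries in all 3 groups, 7 were lower and 15 mixed, beside 29.0%, 25.9% and 45.1% of all genes. Tpp1, whose last 300 bases hold 28.7% GC, had the most negative mean difference, -1.07 on the log2 scale, and Grn, at 53.7% GC, the most positive, 0.73. Since the libraries were set apart by their slope on GC, a relation of such differences to GC is built in, and none is read from them. Cd63, at 53% GC, was at -0.40, and Psap, at 53.3% GC, at 0.12.

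These libraries sat unevenly over the groups, with 2 in shMdk IgG2a, 2 in shCtrl IgG2a, 1 in shMdk anti-PD1 and 0 in shCtrl anti-PD1. Values of anti-PD1 against IgG2a in shCtrl tumours moved when they were left out, as 4 genes chosen after seeing their values show. Atp6v1h gave 0.65 with them and -0.05 without, Tpp1 0.56 and -0.28, Naglu -0.49 and -0.01, and Grn -0.48 and -0.01. None of these values passed the test in either form.

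Other genes of the pathway were followed as whole lists, 99 genes in all, of which 97 were tested. Under anti-PD1, 7 of the 97 (7.22%) rose in shMdk tumours and 0 fell, near the 5.93% of all genes called and the 4.93% called as higher. The median log2 value was 0.10. Of the other lysosomal enzymes 3 of 25 rose, Acp5 (1.54 ± 0.32, adjusted p = 0.00694), Pla2g15 (1.36 ± 0.34, adjusted p = 0.0239) and Gm2a (0.62 ± 0.17, adjusted p = 0.0334). Acp5 is the tartrate-resistant phosphatase of osteoclasts and some macrophages, Pla2g15 a lysosomal phospholipase, and Gm2a the ganglioside activator that works with hexosaminidase. Leaving out 1 tumour lost the call on Pla2g15 in 5 of 8 fits and that on Gm2a in 6 of 8, and Gm2a lost it also without the libraries of positive GC slope (0.50, adjusted p = 0.135).

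Of the other membrane proteins 3 of 17 rose, Laptm5, Cd68 and Slc11a1, all known from blood-derived cells. Laptm5, a leukocyte relative of Laptm4a, read 754, 742, 349 and 430 normalised reads in shMdk anti-PD1 tumours, against 80.0, 45.0, 122 and 153 in shCtrl anti-PD1 tumours (2.56 ± 0.45, adjusted p = 0.00235). Cd68, a macrophage relative of the Lamp proteins that is also on the macrophage marker list, gave 1.91 ± 0.31 (adjusted p = 0.00145). Slc11a1, the phagosomal metal transporter of macrophages, gave 1.63 ± 0.29 (adjusted p = 0.00254). Every shMdk tumour was above every shCtrl tumour for Laptm5.

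Of 14 other V-ATPase genes 1 rose, Atp6v0d2, the d subunit known from osteoclasts and macrophages. It read 82.6, 287, 80.5 and 160 normalised reads in shMdk anti-PD1 tumours, against 24.8, 10.5, 13.9 and 24.3 in shCtrl anti-PD1 tumours (2.86 ± 0.43, adjusted p = 0.000947). No tumours overlapped. Its widely expressed counterpart Atp6v0d1 read 627, 454, 536 and 505 against 664, 473, 625 and 584 normalised reads (shMdk against shCtrl, both anti-PD1), with the groups interleaved.

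The log2 ratio of Atp6v0d2 to Atp6v0d1 was 3.01 higher in shMdk than in shCtrl tumours under anti-PD1 and 1.37 higher under IgG2a. The log2 ratio of Laptm5 to Laptm4a was 2.07 higher in shMdk tumours under anti-PD1 and 2.17 higher under IgG2a. The pairs were chosen after their values were seen, so these ratios are a description with no test.

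The MiT/TFE factors and nutrient sensing genes had 0 of 17 called under anti-PD1 by limma, with 0 at an unadjusted p under 0.05. Mitf averaged 8534 ± 914 normalised reads in shMdk anti-PD1 and 9509 ± 2829 in shCtrl anti-PD1 tumours (SD, n = 4 each; log2 fold change -0.12 ± 0.18). Tfeb gave 0.43 ± 0.25 (adjusted p = 0.411) and Tfe3 0.12 ± 0.21. The 9 genes of the list whose promoters hold the E-box, Lamp1, Gla and Glb1 among them, had 0 calls in any comparison. Of all genes tested, 5.93% were called for the hairpin under anti-PD1, 1.74% under IgG2a and 8.4% in the average. For the antibody this share was at most 0.0477%. In 9 genes, 0 calls is near these shares, and nothing about the E-box is read from it. Under anti-PD1, limma called 0 of 12 enzyme delivery genes (2 with an unadjusted p under 0.05) and 0 of 12 autophagy genes (1 with an unadjusted p under 0.05). Under IgG2a 2 of the 97 passed (2.06%, beside 1.74% of all genes), Laptm5 (2.31 ± 0.45, adjusted p = 0.0102) and Cd68 (1.68 ± 0.31, adjusted p = 0.00685), both higher. The Cd68 call was lost without the libraries of positive GC slope, a fit with fewer tumours, though its value was higher there (1.95, adjusted p = 0.0521).

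**Figure D4:**
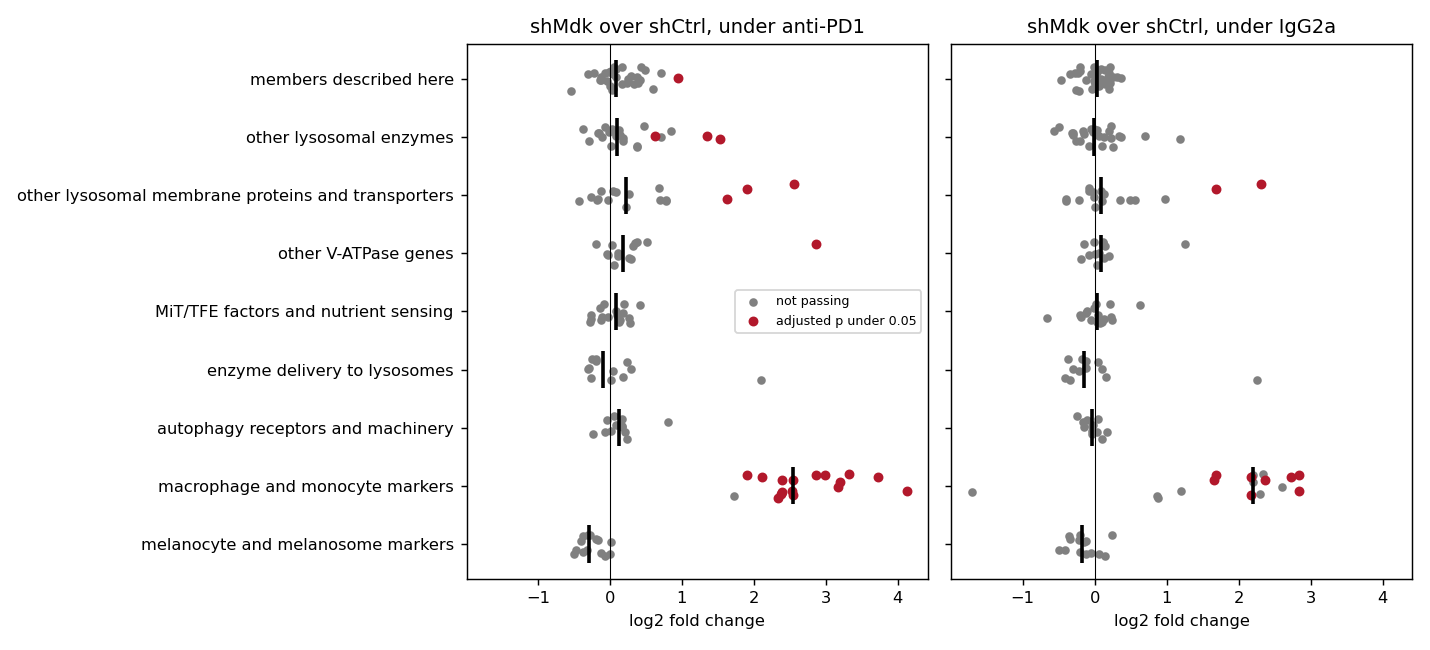
Log2 fold changes of shMdk over shCtrl tumours (x axis) for the 31 lysosome genes, the other lysosome lists and 2 marker lists, under anti-PD1 (left) and IgG2a (right); points are genes, red where the adjusted p is under 0.05, and black bars are medians. The medians of the lysosome lists lie between -0.09 and 0.22 under anti-PD1 and between -0.15 and 0.09 under IgG2a. That of the macrophage markers lies at 2.54 under anti-PD1 and 2.19 under IgG2a.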

How the data were processed

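RNA of 16 tumours was sequenced from 500 ng of total RNA (RNA integrity number 8.6 on average, range 5.8 to 9.2) with a stranded 3′ end kit, per the labels' protocols. The submitters' processing notes name build GRCm38 (mm10) and, in no stated order, HTSeq, SAMtools 0.1.19, TopHat2 2.0.10, DESeq2, Bowtie 1.0.0 and FastQC 0.11.0. The deposited table holds a normalised signal per gene and tumour, read counts that the authors divided by a size factor. Whole reads were recovered for 100% of values (tolerance 0.001), and recomputed size factors matched in 16 of 16 tumours (within 1e-06). Columns left unused numbered 0. The series text describes quadruplicate tumours, so errors are the spread between tumours.

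The main test was limma 3.58.1 (R 4.3.3; group means, variance trend) on log2(normalised reads + 1), which understates changes of low genes, with 14672 genes of mean at least 5, all 16 tumours and 12 residual degrees of freedom. It was tested on simulated data. Alternatives were edgeR 4.0.16 and DESeq2 1.42.0 on the recovered reads (866 and 1310 genes called for shMdk against shCtrl under anti-PD1, against 870 by limma), pseudocounts of 0.5 and 10, no filter, a mean of at least 20, TMM scaling, only the groups compared, each tumour left out and, chosen after seeing the data, the libraries set apart above left out. Exact permutation tests used scipy 1.17.1 in Python 3.11.15. GC content came from GENCODE M21 transcripts.

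The 31 genes and all lists were chosen with earlier results of these data known, and no list received a test. All 31 are named by role; of other lists, up to 4 that passed are named by size of change. Listed genes that are missing from the counts given were not analysed here. Tumour numbers follow accession order and pair nothing.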

Additional observations from a re-analysis of the deposited data

Results flagged for a closer look

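Over 42 genes in 4 groups, 168 groups of 4 tumours were looked at for 1 tumour far from the other 3. Chance flags about 1 in 20 such groups, and 7 (4.17%) were flagged. In shCtrl anti-PD1 tumour 2, a Gm42418-rich library, Gusb read 527 normalised reads (669 to 687 in the others), Sgsh 69.1 (177 to 192) and Atp6ap1 859 (1216 to 1281). In shCtrl anti-PD1 tumour 4, Atp6v1b2 read 1432 (1720 to 1752). In shMdk IgG2a tumour 4, the library with the steepest GC slope, Scarb2 read 540 (731 to 769) and Atp6v1h 222 (450 to 497). In shMdk IgG2a tumour 1, Sorl1, a sorting receptor, read 17.8 (7.28 to 8.53). The part of library composition in these values was not tested.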

How the results depend on the processing

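The count of called lysosome genes was 1 or 0 as reported under every alternative run in all 7 comparisons, except for the average over both antibodies without the libraries of positive GC slope, where it was 0. Of the values of single genes of the list, 4532 kept direction and call or moved by less than the spread, 24 moved further and 1, Psap in that fit, lost its call. None of those called reversed. Leaving out a tumour kept the Psap call under anti-PD1 in 8 of 8 fits and in the average in 16 of 16 fits. Counts over all genes moved more: under anti-PD1 443 without shMdk tumour 1, 569 without shMdk tumour 2 and 1310 with DESeq2 (870 as reported), under IgG2a 167 and 136 without shMdk tumours 1 and 3, 160 and 158 without shCtrl tumours 3 and 4, 74 without the libraries of positive GC slope and 449 with DESeq2 (255), and in the average 745 without those libraries (1233). For anti-PD1 against IgG2a in shMdk tumours they were 244 with DESeq2, 50 with a pseudocount of 10 and 0 to 12 when a tumour was left out (5). Averaged over hairpins they were 220 with DESeq2, 38 without shCtrl anti-PD1 tumour 2 and 0 without the libraries of positive GC slope (7), and in shCtrl tumours 7 with DESeq2 (0). In the average over antibodies, leaving out a tumour lost the call on Pld3 in 10 of 16 fits, on Sorl1 in 8 and on Mfsd12 in 3. No paired analysis was possible because the labels carry no replicate numbers shared between groups. Galns, Mcoln1 and Gla, with the fewest reads, are limited most by depth.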

Other observations

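Averaged over both antibodies, 10 of the 97 other lysosome genes (10.3%) rose in shMdk tumours and 0 fell, beside 8.4% of all genes called and 6.23% called as higher. Beside those named for anti-PD1 they were Pld3, a lysosomal nuclease (0.54 ± 0.15), Mfsd12, a transporter of lysosomes and melanosomes (0.67 ± 0.18), and Sorl1, a sorting receptor of endosomes (2.17 ± 0.59). These 3 calls were lost without the libraries of positive GC slope, a fit with fewer tumours (adjusted p = 0.152 for Pld3, 0.152 for Mfsd12 and 0.0550 for Sorl1). Sorl1 was higher there, at 2.74, while Pld3 and Mfsd12 were lower, at 0.47 and 0.58. The calls were also lost in 10, 3 and 8 of 16 fits that left out a tumour, in the order Pld3, Mfsd12 and Sorl1. Sorl1 also lost its call with edgeR (adjusted p = 0.0917). Sorl1 read 6.78 to 33.0 normalised reads in shMdk anti-PD1 and 7.28 to 17.8 in shMdk IgG2a tumours, against 0 to 22.5 in shCtrl anti-PD1 and 0 to 6.75 in shCtrl IgG2a tumours, so its groups overlapped under anti-PD1. Mfsd12 read 114 to 207 normalised reads in shMdk anti-PD1 tumours, against 60.2 to 100.4 in shCtrl anti-PD1 tumours, without overlap, and 90.9 to 193 in shMdk IgG2a, against 76.6 to 118 in shCtrl IgG2a tumours, with overlap. Tfeb, the MiT/TFE factor best known for lysosomal genes, was at 0.53 ± 0.18 in this average (adjusted p = 0.0759), and Mitf was at -0.09 ± 0.13.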
